A study of Mus musculus with 6 samples.

Results

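2700060E02Rik, named Rtraf in current annotation, codes for a subunit of the tRNA ligase complex. Its RNA was described here in mouse frontal cortex beside that of 4 other genes of the complex, a list that need not be complete. The 5 genes were found by symbol among the 23366 genes of the table: 2700060E02Rik, Ddx1, Fam98a, Fam98b and Rtcb, which the table holds under its older symbol D10Wsu52e. 2700060E02Rik was selected on its FPKM and its adjusted p-value in this same contrast, where its level was higher in the depleted mice, so its difference between the groups is a description and carries no test. The 4 partners were taken for their place in the complex and not for their values, though earlier results of these data were known by then.

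The tRNA ligase complex joins the exons of transfer RNAs from which an intron has been cut. RTCB is the ligase itself, DDX1 is a DEAD-box helicase, and FAM98A, FAM98B and RTRAF are further subunits. The same ligase also joins the messenger RNA of Xbp1 after IRE1 has cut it during the unfolded protein response, the program by which a cell answers misfolded protein in the endoplasmic reticulum. RTCB, DDX1, FAM98 proteins and RTRAF have in addition been found in RNA granules that kinesin motors carry along dendrites.

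RNA of frontal cortical tissue came from 3 littermate control mice, A1 to A3, and 3 d10 depleted mice, A4 to A6, all on a C57BL/6 background and with 1 library each. All 6 mice carried CX3CR1-CreERT2, which drives a tamoxifen-inducible Cre in CX3CR1-expressing cells, and the mice of the study were given tamoxifen. The depleted mice also carried iDTR, a diphtheria toxin receptor allele that Cre switches on, and were examined 10 days after depletion by diphtheria toxin, when microglia have repopulated the tissue. The control mice lacked iDTR, and the methods do not say whether they received the toxin, so that depletion, the iDTR allele and the toxin cannot be told apart here. The study describes adult mice matched for age and sex, and gives no exact ages in the sources used here.

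Values are FPKM, fragments per kilobase of transcript scaled to a common number of fragments per library, which is a level per length and can be compared between genes. In a sample of bulk tissue, fewer cells of a type and less RNA per cell cannot be told apart. Most low FPKM values of each mouse, from 76.0% in A3 to 84.8% in A6, lay within 0.15 of a whole multiple of a single fragment. Their spacing put the estimated depth of the control libraries between 14.5 and 20.6 M fragments and that of A4 to A6 at 13.8, 3.58 and 11.2 M. At these depths 107 low values of A5 lay within 0.15 of 1 fragment and 1 lay within 0.15 of 0.5 fragments, the place of single fragments had the library been 2 times as deep. A5 was therefore the shallowest library, and 7144 genes were at 0 in it, against 5834 to 6849 in the others. A4 stood apart in interferon-stimulated genes: the median of the 12 genes of that list lay 3.53 above the control mean on the log2 scale in A4, 1.10 in A5 and 1.09 in A6. Irf7, an interferon regulatory factor of that list, ranged from 0.64 to 1.82 FPKM over the control mice and was 25.81 FPKM in A4, 4.14 in A5 and 3.75 in A6. Xist was at 4.74 FPKM in control mouse A3 and between 30.9 and 46.7 FPKM in the other mice, and 4 Y-linked genes summed to 5.56 FPKM in A4 and to at most 0.16 FPKM in each other mouse. The 8 neuron markers, as cortex should have, summed to between 2782 and 3431 FPKM in every mouse. The 8 microglia markers summed to 124.6 to 148.8 FPKM in control and 136.2 to 201.4 FPKM in depleted mice, the 6 astrocyte markers to 562.7 to 630.8 and 587.0 to 736.4 FPKM (Gfap alone averaged higher in depleted mice, and the list median was -0.14 on the log2 fold scale), the 4 endothelial markers to 12.02 to 13.76 and 15.1 to 17.4 FPKM, and the 5 choroid plexus markers to 166.6 to 322.3 and 45.5 to 69.3 FPKM. The part of these shifts in the values of the complex genes was not tested.

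2700060E02Rik lies on the minus strand of chromosome 14 of GRCm38 from 19811351 to 19823824, and its main transcript has 8 exons and 1562 bases. Ddx1 lies on chromosome 12 from 13216973 to 13249213 and Rtcb on chromosome 10 from 85938637 to 85957823, both on the minus strand. Fam98a lies on the minus strand of chromosome 17 from 75537086 to 75551946, and Fam98b on the plus strand of chromosome 2 from 117249739 to 117271540. The 5 genes thus sit on 5 chromosomes and share no neighbourhood.

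The sequence in front of 2700060E02Rik is shown beside that of Ddx1, the partner with the next largest difference, because the genes code for subunits of a single complex and differed in how far apart the groups lay. Each line gives the 250 bases before the annotated start, from RefSeq in GRCm38.p6, on the minus strand at chr14:19823824-19824073 and chr12:13249175-13249424, with capitals at each CCAAT box read on either strand (ATTGG is its reverse).
2700060E02Rik: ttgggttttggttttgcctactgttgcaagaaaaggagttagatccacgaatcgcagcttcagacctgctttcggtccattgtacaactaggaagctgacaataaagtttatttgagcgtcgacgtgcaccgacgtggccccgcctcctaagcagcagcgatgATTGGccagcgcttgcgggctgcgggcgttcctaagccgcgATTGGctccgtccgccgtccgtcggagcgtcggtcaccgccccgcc
Ddx1: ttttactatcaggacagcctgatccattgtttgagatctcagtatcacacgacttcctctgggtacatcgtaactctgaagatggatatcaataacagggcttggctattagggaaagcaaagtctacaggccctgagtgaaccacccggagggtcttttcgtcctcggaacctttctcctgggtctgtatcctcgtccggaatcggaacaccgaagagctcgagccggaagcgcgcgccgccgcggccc
2700060E02Rik had 2 CCAAT boxes, both in the reverse direction, with their first bases 87 and 46 bases before the start. Ddx1, Fam98a and Fam98b had 0. A CCAAT match stood in 33.9% of the 32851 promoters of the table, and at least 2 matches in 10.1%. The interferon-stimulated response element (GAAA, 2 bases of any kind and GAAA, in 2.98% of promoters), the ER stress response element (CCAAT, 9 bases of any kind and CCACG, in 0.113%) and the unfolded protein response element (TGACGTGG, in 0.563%) matched none of these 4 promoters on either strand. ER stress response elements contain a CCAAT box, so that these motifs overlap. No match says only that these letters were not in these 250 bases. The window of Ddx1 lies before its RefSeq start, but the GENCODE position given above reaches 13249213. The end of the Ddx1 line, from 13249175 to 13249213, thus lies inside the gene as GENCODE places it.

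The FPKM of 2700060E02Rik was 49.02, 49.42 and 49.83 in the control mice A1, A2 and A3, and 80.88, 85.57 and 76.80 in the depleted mice A4, A5 and A6. The groups lay far apart: the lowest depleted mouse was 26.97 FPKM above the highest control mouse, while the depleted mice spanned 8.77 FPKM and the control mice 0.81 FPKM. The means were 49.4 ± 0.405 (SD, n = 3) and 81.1 ± 4.39 (SD, n = 3), a ratio of 1.64 and a log2 fold change of 0.70 (standard error 0.070) on the log2(FPKM + 1) scale. This is the value that chose the gene. It was 1 of 4 genes with an adjusted p-value under 0.1 among the 14385 genes tested, those averaging 0.5 FPKM or more (0.0278%), and nothing is read from that count here. The gene just inside that threshold was BC002163, with a log2 fold change of 5.06, and the first outside it were Ttr, with -1.91, and Ifi27l1, with 0.84.

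**Figure D1:**
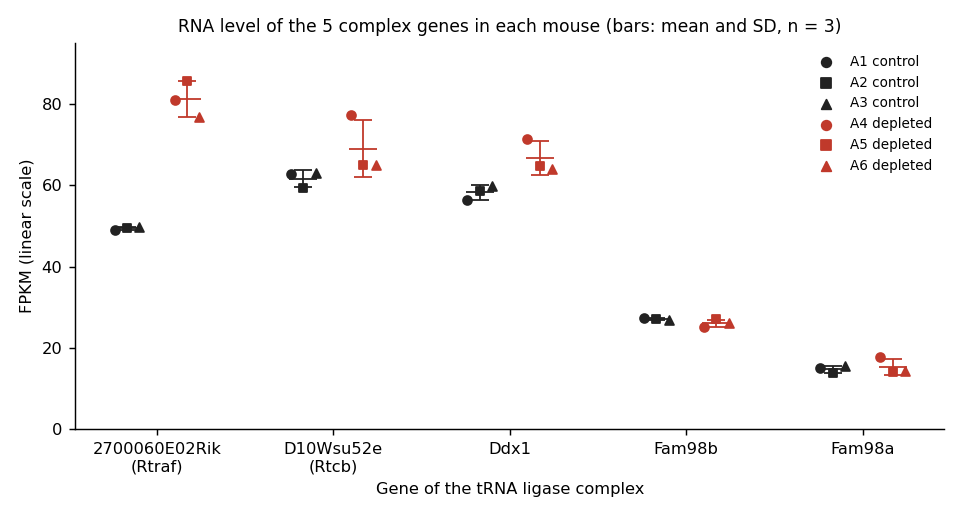
FPKM of the 5 tRNA ligase complex genes (linear axis) in each control mouse (black) and depleted mouse (red), with the group mean and SD as bars. The depleted mice stood at 76.80 to 85.57 FPKM in 2700060E02Rik against 49.02 to 49.83 in the control mice, and the groups lay much closer in the 4 partners.

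2700060E02Rik was highest in A5, and the interferon list was highest in A4. The part of the interferon list in the values of 2700060E02Rik was not tested. The log2 fold change of 2700060E02Rik was again 0.70 without A4, and it ran from 0.66 to 0.74 with any 1 mouse left out. In A5, the shallowest library, about 479 fragments stood behind its value. The 95% Poisson interval of that count ran from 78.1 to 93.6 FPKM, which covers counting error only. The A4 value of 80.88 FPKM lay within that interval, so the order of A5 and A4 is not settled. The control mice lay close to each other: their coefficient of variation was 0.820%, whereas the estimated counting error of each was between 2.51% and 3.003% of its value. Among the 2638 genes with a control mean from 25 to 100 FPKM the median coefficient of variation in the control mice was 5.01%, and 43 genes had a smaller one than 2700060E02Rik. Of the 14385 genes tested, 163 had a larger log2 fold change.

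Rtcb, the gene of the ligase, was at 62.65, 59.23 and 62.91 FPKM in A1 to A3 and at 77.20, 64.85 and 64.91 FPKM in A4 to A6. The groups did not overlap, but A5 and A6 lay only narrowly above the highest control mouse, and A4 was far above both. Rtcb had a log2 fold change of 0.16 with a standard error of 0.086 (adjusted p = 0.557 in limma, 95% interval from -0.04 to 0.35), and it was 0.074 with A4 left out.

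Ddx1, the gene of the helicase, was at 56.29, 58.62 and 59.79 FPKM in A1 to A3 and at 71.33, 64.66 and 63.89 FPKM in A4 to A6. Here too the depleted mice were all the higher, and A4 was again the highest. The log2 fold change was 0.19 (standard error 0.073, unadjusted p = 0.0308 and adjusted p = 0.438 in limma, 95% interval from 0.022 to 0.36), or 0.14 without A4. The interval, like the others here, is not adjusted for the number of genes.

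Fam98b was at 27.43, 27.11 and 26.94 FPKM in the control mice and at 25.16, 26.99 and 26.02 FPKM in the depleted mice. The groups met at A3 and A5, and A4, the highest mouse for Rtcb and Ddx1, was here the lowest. Fam98b had a log2 fold change of -0.058 with a standard error of 0.073 (adjusted p = 0.804 in limma, 95% interval from -0.22 to 0.11).

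Fam98a, a close relative of Fam98b, was at 15, 13.79 and 15.47 FPKM in the control mice and at 17.67, 14.17 and 14.27 FPKM in the depleted mice. A5 and A6 lay among the control mice, and A4 stood above all. Fam98a had a log2 fold change of 0.050 with a standard error of 0.11 (adjusted p = 0.896 in limma, 95% interval from -0.20 to 0.30), and it was -0.048 without A4, a change of sign. In A5 about 143 fragments stood behind Fam98a, the fewest of the 5 genes.

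In limma 0 of the 4 partners passed an adjusted p-value of 0.1, where the share over all genes tested was 0.0278%. In limma 1 partner, Ddx1, had an unadjusted p-value under 0.05 and was higher in the depleted mice, where 4.79% of all genes tested were. The groups did not overlap, with the depleted mice higher, in 2 of the 4, Ddx1 and Rtcb, where 8.21% of all genes tested were, and 17.6% did not overlap in either direction. The median log2 fold change of the 4 partners was 0.10, against -0.0085 over all genes tested, and 0.020 without A4. The intervals of the 4 partners reach at most 0.36, the upper end for Ddx1. The interferon list was highest in the same mouse, A4, as Rtcb, Ddx1 and Fam98a, and its part in their values was not tested.

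Within the complex, the order of the levels changed at its top. In each of the 3 control mice Rtcb was highest, then Ddx1, 2700060E02Rik, Fam98b and Fam98a. In each of the 3 depleted mice 2700060E02Rik came first and the other 4 kept this order. In A4 its lead was within counting error: the 95% Poisson intervals of 2700060E02Rik (77.1 to 84.8 FPKM) and Rtcb (74.0 to 80.5 FPKM) overlapped. Rtcb and Ddx1 were near each other, with a ratio of Ddx1 to Rtcb between 0.898 and 0.990 in control and between 0.924 and 0.997 in depleted mice, and the FPKM ranges of these neighbours overlapped in control and in depleted mice. Fam98b stood above Fam98a in all 6 mice.

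The ratio of 2700060E02Rik to Rtcb within a mouse, which a scaling factor per library cannot alter, was 0.782, 0.834 and 0.792 in A1, A2 and A3, and 1.05, 1.32 and 1.18 in A4, A5 and A6. The ratio was below 1 in each control mouse and above 1 in each depleted mouse, and it was nearest to 1 in A4, where Rtcb was highest. Against the geometric mean of the 4 partners the ratio was 1.43 ± 0.0312 (SD, n = 3) in control mice and 2.21 ± 0.182 (SD, n = 3) in depleted mice. The ratio of Fam98b to Fam98a was 1.85 ± 0.113 (SD, n = 3) and 1.72 ± 0.257 (SD, n = 3), and that of Ddx1 to Rtcb was 0.946 ± 0.0457 (SD, n = 3) and 0.969 ± 0.0390 (SD, n = 3), and both overlapped between the groups. The ratio of Ddx1 to Fam98b did not overlap, averaging 2.14 ± 0.0849 (SD, n = 3) over control and 2.56 ± 0.238 (SD, n = 3) over depleted mice, with the highest value, 2.84, in A4. Higher in depleted mice without overlap were also the ratios of Rtcb to Fam98b and of Rtcb to Fam98a. That of Ddx1 to Fam98a overlapped. These ratios with 2700060E02Rik contain the values that chose it and are given with no test.

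**Figure D2:**
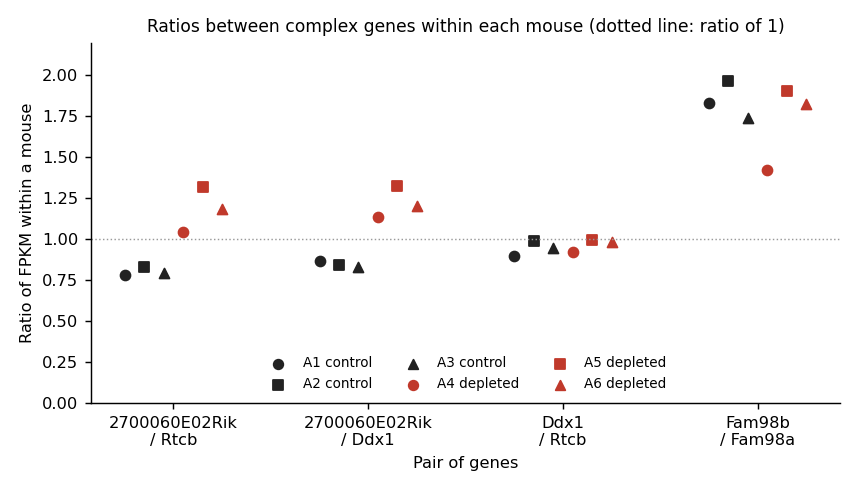
Ratio of FPKM between pairs of complex genes within each mouse, with control mice in black and depleted mice in red. The ratios of 2700060E02Rik to Rtcb and to Ddx1 lay below 1 in the 3 control mice and above 1 in the 3 depleted mice, while the ratios Ddx1 to Rtcb and Fam98b to Fam98a overlapped between the groups. Other pairs of partners are not drawn, and some of them, such as Ddx1 to Fam98b, did not overlap.

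Reads that could belong to other genes were counted as windows of 75 bases, the read length, that also occur in another annotated transcript. For Ddx1, Rtcb and Fam98b there were 0 such windows, and for Fam98a there were 8 (0.29%). For 2700060E02Rik 39.1% of windows were shared, with the last exon of Nid2 on the opposite strand (24.4%), the processed pseudogene Gm10704 on chromosome 3 (12.6%) and an annotated transcript of Ssr2 (8.40%), in part the same windows. Nid2, which codes for a basement membrane protein, ends within 2700060E02Rik, and their exons overlap by 437 bases. Strand was not stated for the libraries, so reads of this stretch cannot be assigned by strand.

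The 2 listed genes sharing sequence with 2700060E02Rik overlapped between the groups. Nid2 was at 0.46, 0.37 and 0.59 FPKM in control and at 0.56, 0.74 and 0.18 FPKM in depleted mice, which overlap. Ssr2, a subunit of the translocon-associated complex of the endoplasmic reticulum, averaged 46.1 ± 5.69 (SD, n = 3) over control and 44.8 ± 3.85 (SD, n = 3) over depleted mice in FPKM. Gm10704 was not analysed here. The part of shared reads in the values of 2700060E02Rik was not tested.

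A wider list of 12 genes covered the enzymes that act around the ligase in tRNA splicing and in the repair of RNA ends, and it did not move in 1 direction. In limma 0 of the 12 passed an adjusted p-value of 0.1, and at an unadjusted p-value under 0.05 there were 3, all lower in depleted mice (5.74% of all genes tested), and 0 higher. The median log2 fold change was -0.0099, with 6 genes higher and 6 lower, against -0.0085 over all genes tested. The groups did not overlap in 2 genes, Cnp and Fam98c, both lower in depleted mice, where 9.38% of all genes tested were.

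Tsen15, Tsen34 and Tsen54 code for subunits of the tRNA splicing endonuclease, which cuts the intron out before the ligase acts. Their log2 fold changes were -0.057, -0.29 and 0.037 (standard errors 0.10, 0.12 and 0.15). Tsen34 was the lowest of these, at 48.36, 40.88 and 49.05 FPKM in control and 35.70, 33.56 and 43.44 FPKM in depleted mice, with A6 above A2 (unadjusted p = 0.0334, adjusted p = 0.442 in limma). Clp1, an RNA kinase bound to the endonuclease, had a log2 fold change of 0.043 (standard error 0.20).

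Zbtb8os, or archease, which activates the ligase, was at 18.85, 21.83 and 18.54 FPKM in control and 26.30, 21.14 and 20.12 FPKM in depleted mice. As with Rtcb and Ddx1, A4 was highest, and the other 2 depleted mice fell within the control range (log2 fold change 0.18, standard error 0.12, adjusted p = 0.621 in limma). Pyroxd1, an oxidoreductase that protects the ligase, was at 0.046 (standard error 0.12) on the log2 fold scale. Rtca, the cyclase that can remake the RNA end on which the ligase acts, was at 34.36, 36.73 and 38.07 FPKM in control and 56.15, 31.67 and 39.10 FPKM in A4 to A6. Its depleted mice lay on both sides of the control mice, with A4 far above them (log2 fold change 0.17, standard error 0.18, adjusted p = 0.748 in limma).

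Angel2, a phosphatase of cyclic RNA ends that opposes the ligase, was at 0.19 on the log2 fold scale (standard error 0.092, adjusted p = 0.513 in limma), and Trpt1, a phosphotransferase of the other known tRNA splicing route, one of -0.20 (standard error 0.13). Cnp, an abundant phosphodiesterase of myelin, was at 164.17, 155.19 and 156.37 FPKM in control and 122.48, 130.24 and 130.78 FPKM in depleted mice. Its groups did not overlap, and the log2 fold change was -0.31 (standard error 0.065, unadjusted p = 0.00124, adjusted p = 0.307 in limma). Beside it, the 6 oligodendrocyte markers were all lower on average in depleted mice, with a median log2 fold change of -0.22 and sums from 2805 to 3060 FPKM in control and from 2461 to 2550 FPKM in depleted mice, and their part in the value of Cnp was not tested.

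Fam98c, the third FAM98 gene, was at 16.66, 15.24 and 17.18 FPKM in control and 14.18, 12.24 and 10.66 FPKM in depleted mice. The groups did not overlap, with the depleted mice lower, whereas those of Fam98a and Fam98b overlapped. Fam98c had a log2 fold change of -0.38 with a standard error of 0.11 (unadjusted p = 0.00923, adjusted p = 0.378 in limma).

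**Figure D3:**
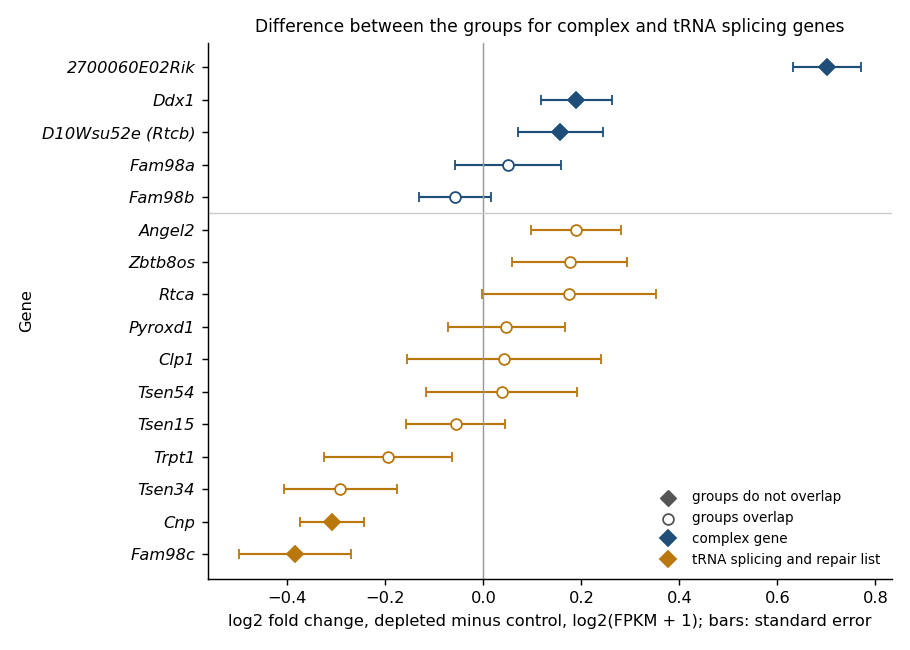
log2 fold change (depleted minus control, log2(FPKM + 1), bars: standard error) of the 5 complex genes in blue and genes of the tRNA splicing and repair list in ochre, with filled diamonds where the groups do not overlap. 2700060E02Rik stood at 0.70, every other gene plotted lay between -0.38 and 0.19, and Cnp and Fam98c were the lowest.

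The enzymes that trim and complete the ends of tRNAs, among them RNase P subunits, RNase Z and the enzyme adding the terminal CCA, formed a list of 16 genes. In limma 0 passed an adjusted p-value of 0.1, and 1 was higher at an unadjusted p-value under 0.05, against 4.79% of all genes tested. This was the RNase P subunit gene Pop5, at 45.29, 42.18 and 46.53 FPKM in control and 51.35, 47.69 and 54.33 FPKM in depleted mice (log2 fold change 0.19, standard error 0.079, adjusted p = 0.460 in limma). The median log2 fold change of the list was 0.072, with 11 genes higher, and it was -0.012 without A4. The highest were Trmt10c (0.27), a subunit of mitochondrial RNase P, Elac1 (0.22), an RNase Z, and Pop5, and the lowest were Rpp40 (-0.30) and Rpp25 (-0.22), both of RNase P, and Elac2 (-0.17), the other RNase Z. The groups did not overlap in Elac1, Pop4 and Pop5, where depleted mice were higher, and in Elac2, where they were lower, against 8.21% and 9.38% of all genes tested. In Elac1 they barely parted, with control mouse A3 at 8.86 FPKM and depleted mouse A5 at 8.87 FPKM.

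Because the ligase also splices Xbp1 RNA, 25 genes of the unfolded protein response were listed, 24 of which passed the filter on low values. In limma 0 passed an adjusted p-value of 0.1 and 0 an unadjusted p-value of 0.05, against 10.5% of all genes tested. Ern1, which codes for IRE1, averaged 1.48 ± 0.256 (SD, n = 3) over control and 1.49 ± 0.567 (SD, n = 3) over depleted mice in FPKM. Total Xbp1 RNA was at 46.22, 44.44 and 49.25 FPKM in control and 40.21, 52.17 and 50.32 FPKM in depleted mice, which overlap (log2 fold change 0.020, standard error 0.11). Spliced and unspliced Xbp1 cannot be separated in values per gene. The Xbp1 target Dnajb9 had a log2 fold change of 0.0073 (standard error 0.10), and the chaperone gene Hspa5 was at 119.73, 120.45 and 138.11 FPKM in control and 107.55, 163.96 and 159.12 FPKM in A4 to A6, with depleted mice on both sides of the control mice.

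The median of the unfolded protein response list was -0.021 on the log2 fold scale, with 9 genes higher and 15 lower, and 0.051 without A4. The highest were Atf6 (0.22), a sensor of the response and the only one of the 24 whose groups did not overlap (17.6% of all genes tested), Ddit3 (0.21), a stress transcription factor, and Edem1 (0.20), which acts in the removal of misfolded proteins. Ddit3 was at 60.54 FPKM in A4 and between 26.87 and 32.94 FPKM in the other 5 mice. The lowest were Sec61b (-0.30), a translocon subunit, Sdf2l1 (-0.28), a chaperone partner, and Sec24d (-0.27), a vesicle coat protein.

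Of 16 genes for proteins of the neuronal RNA transport granule, 0 passed an adjusted p-value of 0.1 in limma and 2 were at an unadjusted p-value under 0.05, against 10.5% of all genes tested. The median was -0.0093, with 8 genes higher and 8 lower. The 2 were kinesin heavy chain genes with opposite directions and groups that did not overlap (17.6% of all genes tested). Kif5a was at 615.72, 620.51 and 584.22 FPKM in control and 466.34, 521.99 and 514.95 FPKM in depleted mice (log2 fold change -0.28, standard error 0.070, unadjusted p = 0.00392, adjusted p = 0.370). Kif5c was at 150.24, 159.29 and 145.85 FPKM in control and 175.13, 174.84 and 168.75 FPKM in depleted mice (log2 fold change 0.19, standard error 0.065, unadjusted p = 0.0193, adjusted p = 0.401). After Kif5c the highest were the helicase gene Ddx3x (0.14) and Sfpq (0.11), which codes for an RNA-binding protein, and after Kif5a the lowest were the RNA-binding protein genes Pura (-0.17) and Stau2 (-0.091).

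The genes whose values were most like those of 2700060E02Rik were found by the root mean square difference over the 6 mice between profiles of log2(FPKM + 1) less the control mean, among 9443 other genes averaging 5 FPKM or more. The closest were Wdfy1 (0.111), Snhg6 (0.115), Gng2 (0.137), Mitd1 (0.141) and Pole3 (0.146). None of them is a gene of the complex: Ddx1 had rank 599 (0.368), Rtcb rank 1069 (0.398), Fam98a rank 3177 (0.476) and Fam98b rank 5404 (0.539). As the profile of 2700060E02Rik was chosen for its difference, these 5 genes differ between the groups by construction, and they are described with no test.

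Wdfy1, an endosomal protein gene, was at 4.90, 5.05 and 5.69 FPKM in control and 10.58, 10.55 and 8.12 FPKM in depleted mice. Snhg6, a small nucleolar RNA host gene, was at 20.10, 21.29 and 26.34 FPKM in control and 36.10, 38.95 and 32.84 FPKM in depleted mice. In both, as in 2700060E02Rik, A6 was the lowest of the depleted mice. Mitd1, which acts in cell abscission, averaged 4.77 ± 0.340 (SD, n = 3) over control and 7.92 ± 0.791 (SD, n = 3) over depleted mice in FPKM, and Pole3, a histone-fold subunit of a DNA polymerase, 10.1 ± 1.56 (SD, n = 3) and 16.5 ± 0.991 (SD, n = 3). Wdfy1, Snhg6 and Mitd1 lie on chromosome 1, which holds 5.55% of the genes compared.

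**Figure D4:**
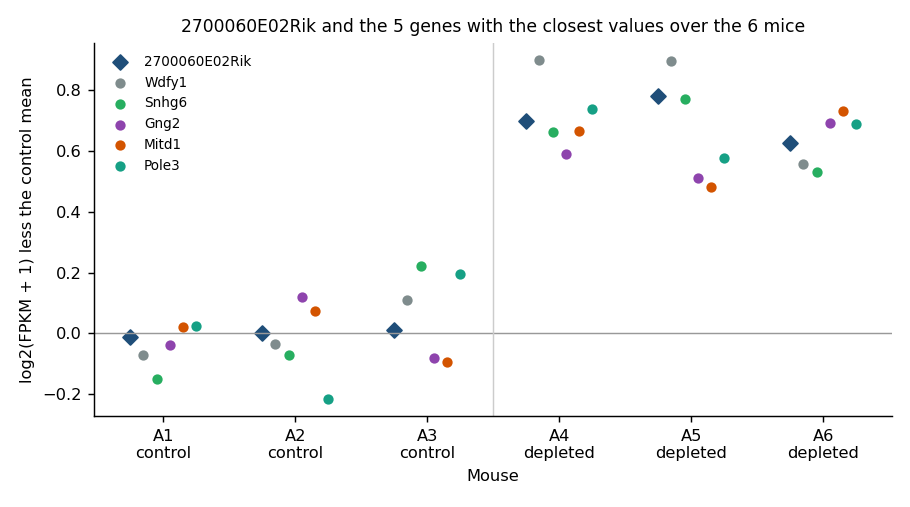
log2(FPKM + 1) less the control mean for 2700060E02Rik (diamonds) and the 5 genes with the smallest root mean square difference to it, in each of the 6 mice. In the depleted mice all 6 genes lay well above the control mice, and in the control mice 2700060E02Rik varied least.

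Gng2, the third of these genes, is also the nearest listed gene on the side of 2700060E02Rik away from Nid2, 48.7 kb away on chromosome 14 and on the same strand. It codes for a gamma subunit of G proteins. Its FPKM was 48.54, 54.34 and 47.17 in A1, A2 and A3, and 75.61, 71.57 and 81.21 in A4, A5 and A6. The groups did not overlap, and the order within the depleted mice was the reverse of that of 2700060E02Rik, with A6 highest and A5 lowest. On the log2 fold scale Gng2 stood at 0.60 (standard error 0.0835).

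The nearest 3 listed genes on each side were otherwise Saysd1 and Kcnk5 beyond Gng2, and Nid2, Gm5458 and Ube2e2 on the other side. Saysd1, 251.8 kb away, had a log2 fold change of 0.32 (standard error 0.13), and its groups did not overlap. Kcnk5 and Nid2 lay under the filter on low values. Gm5458, 208.8 kb away, had a log2 fold change of 0.23 (standard error 0.35) with overlapping groups, and Ube2e2, a gene of a ubiquitin-conjugating enzyme 917.1 kb away, one of 0.22 (standard error 0.11) with groups that did not overlap. The gaps of Saysd1 and Ube2e2 were narrow. Their highest control mouse was at 3.58 and 42.22 FPKM, and their lowest depleted mouse at 3.67 and 42.25 FPKM. Positions are those of GRCm38, which is not the build of the deposited values.

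**Figure D5:**
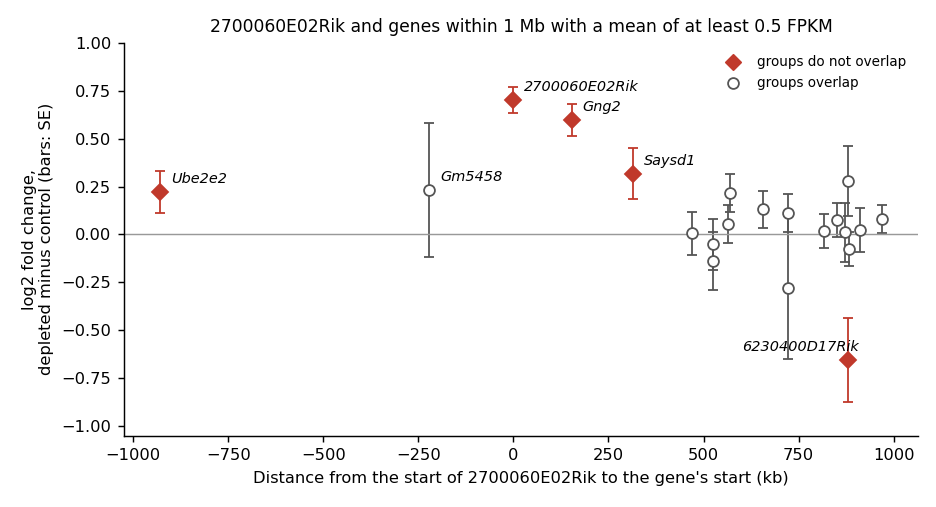
log2 fold change (depleted minus control, bars: standard error) of 2700060E02Rik and of the genes within 1 Mb averaging 0.5 FPKM or more, against the distance between gene starts in kb, with red diamonds where the groups do not overlap. 2700060E02Rik (0.70), Gng2 (0.60) and Saysd1 (0.32) were the highest, and 6230400D17Rik (-0.66) was the lowest.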

How the data were processed

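Frontal cortical RNA of 3 control and 3 depleted mice was compared. The authors prepared poly(A)-selected libraries and sequenced pairs of 75-base reads, which went through TopHat for alignment and RSEM for quantification. The deposited FPKM values carry TMM scaling and 2 decimals. The submitters' processing notes name mm9. Tool versions and strandedness are not given in the sources used here. The study tested raw counts with DESeq, and counts were not used here.

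Of 23366 genes, the 14385 whose mean reached 0.5 FPKM were compared on log2(FPKM + 1) with limma 3.58.1 in R 4.3.3 (lmFit, eBayes with trend), with Benjamini-Hochberg adjustment over all of them, a threshold of 0.1 and no covariate. Fold changes on this scale understate those of low genes. P-values weigh the difference between the groups against the spread between these mice, which limma moderates with that of all genes tested. For a single gene an exact permutation test of 3 mice against 3 gives no p-value below 0.1, and none was used.

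The members and gene lists were chosen with earlier results of these data known. Genes were named by rule: the 5 members, the splicing list (1 gene of it is counted but not reported singly here), the 3 highest and 3 lowest of each other list, the 5 genes of most similar profile, the 3 nearest listed genes on each side, genes sharing sequence, and Irf7 for the interferon list. Pop4, Ern1, Xbp1, Dnajb9 and Hspa5 were named after their values were seen, as were Ssr2, BC002163, Ttr, Ifi27l1 and 6230400D17Rik, and the CCAAT motif was chosen then too.

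Fragments per mouse were estimated from the spacing of low FPKM values in 2325 genes with a single annotated transcript of 700 to 2500 bases, and intervals from them cover counting error only. As the values carry TMM scaling, these are scaled estimates, which can differ from the read coverage that the study states. Fragment counts of the members assume the length of their longest coding transcript. Positions, transcripts and shared windows came from GENCODE M21 (GRCm38), and promoters from RefSeq, which held 4 of the 5 members. Protein sequences were not used here. The fit and the depth estimate were tested on simulated data. The alternatives tried were no filter, a pseudocount of 0.1, a filter at 1 FPKM, TPM and median-of-ratios scaling, no trend, array weights, a threshold of 0.05 and leaving out each mouse. Tables and figures were made in Python 3.11.15 with pandas 2.3.3, numpy 2.4.6, matplotlib 3.10.9 and scipy 1.17.1.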

Additional observations from a re-analysis of the deposited data

How the results depend on the processing

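The log2 fold change of 2700060E02Rik ran from 0.66 to 0.74 over 13 alternatives. Ddx1 (0.14 to 0.22), Rtcb (0.074 to 0.20) and Fam98b (-0.083 to -0.034) kept their direction and did not pass the threshold in any of theirs, with adjusted p-values in limma of at least 0.328, 0.391 and 0.670. Fam98a turned to -0.008 with array weights and to -0.048 without A4, and ran from -0.048 to 0.10 with 1 mouse left out. The number of genes past an adjusted p-value of 0.1 was 2 without trend, 20 with array weights and from 2 (without A1) to 29 (without A5) with 1 mouse left out, against 4, and the number past an unadjusted p-value of 0.05 ran from 789 (without A1) to 2061 (without A5) with 1 mouse left out, against 1515. Leaving out A4, A5 or A6 in turn gave 22, 29 and 8 genes past the adjusted threshold. The medians of the splicing list (-0.070 to 0.015), the tRNA end list (-0.012 to 0.14), the unfolded protein response list (-0.063 to 0.051) and the granule list (-0.031 to 0.016) each changed sign under some alternative. Rescaling moved the median of all genes by less than 0.01. No paired analysis was possible because the labels do not say which mice were littermates or matched to each other. Depth limits the values of A5 most, with about 3.58 M fragments.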

Other observations

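Of 27 listed genes within 1 Mb of 2700060E02Rik, a window chosen after the values of its neighbours were seen, 20 had a mean of at least 0.5 FPKM. Of these 20, 15 were higher in the depleted mice, where 6907 of the 14385 genes tested were, and nothing is read from that count here. The groups did not overlap in 4 of the 20, Gng2, Saysd1, 6230400D17Rik and Ube2e2, where the share over all genes tested was 17.6%. In Saysd1, 6230400D17Rik and Ube2e2 they lay only narrowly apart. Apart from Gng2, the log2 fold changes ran from -0.66 for 6230400D17Rik, annotated as an antisense gene, to 0.32 for Saysd1.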
